A study of Rattus norvegicus with 22 samples.

Results

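GABA-A receptor subunits (Gabra2, Gabra4, Gabra5, Gabrb2 and Gabrd) and both enzymes of GABA synthesis (Gad1 and Gad2) were followed in the rat hippocampus after traumatic brain injury (TBI). These 7 genes were taken by name from the 17172 genes of the count table, and all 7 were among the 12875 genes with enough counts to be tested. Polyadenylated RNA was sequenced from the hippocampus on the injured side of adult male Sprague-Dawley rats. TBI rats received a moderate lateral fluid percussion, a pulse of fluid pressure onto the dura through a craniectomy over the right hemisphere. Sham rats had the same anesthesia and surgery, craniectomy included, without the pulse, so every rat had an opened skull and there was no group without surgery. The hippocampus was collected at day 1 from 2 sham and 4 TBI rats and at day 14 from 4 sham and 4 TBI rats.

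GABA is the main inhibitory transmitter of the brain. It is made from glutamate by the glutamate decarboxylases, and it opens chloride channels built from several receptor subunits. Receptors at synapses give brief inhibition. Those with the delta or alpha5 subunit lie largely outside synapses, where they sense ambient GABA and give a steady, tonic inhibition. In the hippocampus the delta subunit is best known from dentate granule cells and the alpha5 subunit from pyramidal cells. The question put to the data was how the 2 extrasynaptic subunits (Gabra5, alpha5, and Gabrd, delta) compared with the other 3 (Gabra2, alpha2; Gabra4, alpha4; Gabrb2, beta2), which are called synaptic here. That division is a simplification, since alpha4 is known to partner delta outside synapses, and beta2 occurs in receptors of both kinds.

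Libraries held 15065540 to 23743703 counts. Levels are given as CPM, read counts scaled to a common library size with TMM factors, and since they are not corrected for gene length they are compared between rats and not between genes. The sham rats of day 1 were few and unlike each other: replicate 1 lay at 43.6% to 70.9% of replicate 2 in the 7 genes. Sham day 1 replicate 1 and TBI day 14 replicates 2 and 3 were also high in choroid plexus markers (mean centred log2 CPM of 5.17, 2.66 and 4.53, against -1.93 to -0.74 in the other rats), tissue that adjoins the hippocampus. Most neuronal markers were abundant in every library. Npy was listed at 0 in all 14, Fibcd1 of the pyramidal cell markers had 12 counts in all and Eno2 103, so these markers of neurons could not be read from this table. Eno2 still entered the mean of the 10 general neuron markers used below, and was at 0 in TBI day 1 replicate 1.

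At day 1 all 7 genes had lower estimates in TBI than in sham rats, and 5 passed the test: Gabrd, Gabra4, Gabra5, Gabra2 and Gad1. Gabrd was lowest, at 33.5% of the sham level. A gene was called at an adjusted p under 0.05 in edgeR's quasi-likelihood test, and by that rule 7.93% of all tested genes were lower and 11.2% higher at day 1. The TBI and sham rats did not overlap in 3 of the 7 genes (Gabrd, Gabra4 and Gabra5), with all TBI rats lower, as in 14.1% of all tested genes. The median log2 fold change was -1.11 over the 7 genes and -0.02 over all tested genes. At day 14 none of the 7 passed, where 0.365% of tested genes were lower and 4.07% higher. None reached an unadjusted p under 0.05 at day 14 in edgeR either, and limma-voom and DESeq2 also called 0. In edgeR the spread was shared with the day 1 rats, so the SE may be too large for day 14 in some genes. For Gad1 the SD of log2 CPM was 0.15 (sham) and 0.09 (TBI) at day 14, against 0.58 and 0.27 at day 1. For Gabra2 it was 0.12 in both groups, against 0.73 and 0.53. With only the day 14 groups fitted, 0 of the 7 were called. The adjusted p there was 0.09 for Gabra2 and 0.115 for Gad1 in edgeR. The lack of calls does not exclude a difference at day 14.

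**Figure D1:**
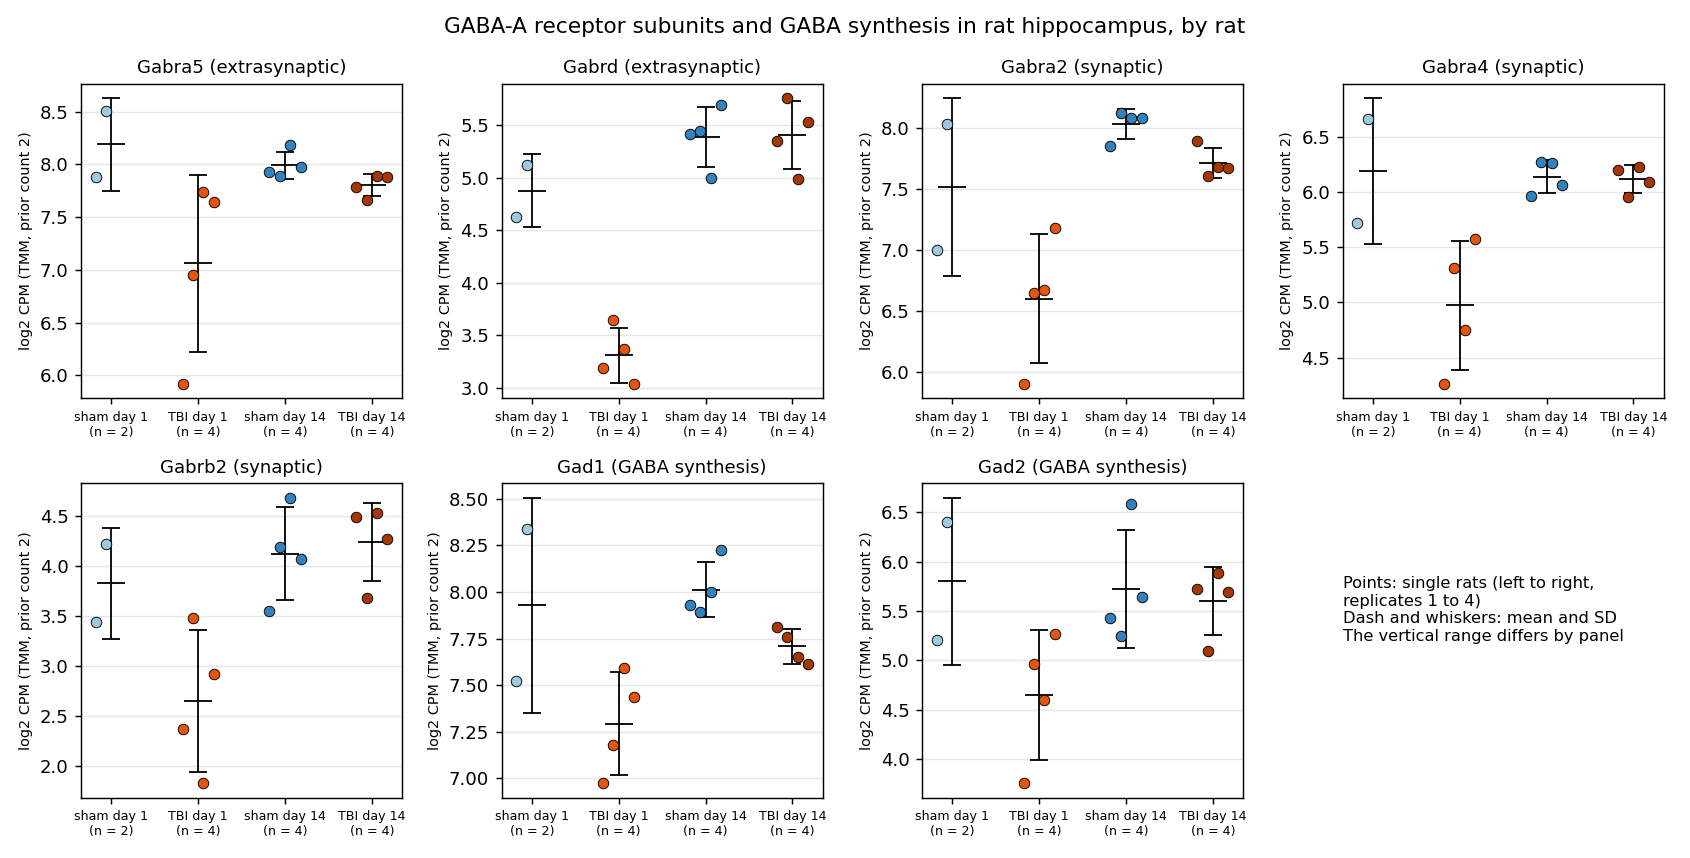
Level of each gene in each rat, as log2 CPM, in the 4 groups (n = 2, 4, 4 and 4). Each point is 1 rat, and the dash and whiskers are the group mean and SD. The 4 TBI day 1 rats lie below all other rats for Gabrd (8.1 to 12.4 CPM against 24.6 or more) and for Gabra4 (19.1 to 47.5 CPM against 52.6 or more). For the remaining genes they overlap with other rats. In each gene TBI day 1 replicate 1 is the lowest or next to lowest.

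The delta subunit, Gabrd, was the member that set TBI day 1 apart most clearly. It was at 24.6 and 34.7 CPM in the sham day 1 rats, and at 8.97, 12.4, 10.2 and 8.1 CPM in the TBI day 1 rats. At day 14 it was at 42.6, 43.4, 31.9 and 51.5 CPM in sham rats and at 40.8, 54.1, 31.7 and 46 CPM in TBI rats. All 4 TBI day 1 rats were therefore below every other rat of the study, and the groups of day 14 covered nearly one range. Gabra4 shared this separation, by a narrower margin. The share of all tested genes with it was not counted. The log2 fold change of Gabrd at day 1 was -1.58 (SE 0.23, adjusted p = 0.000338 in edgeR). At day 14 the log2 fold change was 0.03 (95% interval -0.38 to 0.44, adjusted p = 0.984 in edgeR), so an injury effect as large as that of day 1 lies outside the interval. The difference between the effects at the 2 days was -1.60 (SE 0.30, adjusted p = 0.0101 in edgeR). Gabrd was the 1 member of 7 called for it, where 1.44% of tested genes were called lower. Without sham day 1 replicate 2 the day 1 effect of Gabrd was -1.31 (adjusted p = 0.0115 in edgeR) and the difference between days -1.34 (adjusted p = 0.0523), which ends the second call.

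The promoter of Gabrd is shown because this gene had the largest response of the 7. It runs from 250 bases before to 50 bases after the annotated start in RefSeq (GRCr8, chr5:171252660-171252959, minus strand, printed 5′ to 3′ along the gene), and 73.7% of its bases are G or C, against a median of 60.7% over the promoters of tested genes.

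Gabrd promoter: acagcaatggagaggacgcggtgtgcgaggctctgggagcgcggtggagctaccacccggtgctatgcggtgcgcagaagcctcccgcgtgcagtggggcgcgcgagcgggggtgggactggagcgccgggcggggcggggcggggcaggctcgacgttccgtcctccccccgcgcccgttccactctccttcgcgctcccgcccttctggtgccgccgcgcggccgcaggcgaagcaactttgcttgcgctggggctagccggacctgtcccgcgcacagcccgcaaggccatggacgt

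None of the 6 motifs searched for on both strands (listed with the promoters of Gabra4 and Gad1) occurred in it, which says only that those letters are not in this window.

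Several markers of dentate granule cells were also lower at day 1. Of the 5 tested markers on that list 3 were lower, where 7.93% of all tested genes were lower. C1ql2, a secreted synaptic protein of granule cells, was at -2.20 (SE 0.57, adjusted p = 0.0157 in edgeR). Calb1, the calcium buffer calbindin, was at -0.998 (SE 0.36, adjusted p = 0.0618) and was not called. The 5 markers summed to 233 and 532 CPM in the sham rats of day 1 against 68.6 to 224 in the injured ones. TBI day 1 replicate 4 had the highest sum of its group, 224 CPM, close to sham replicate 1, and the lowest Gabrd of all rats, 8.1 CPM. The other day 1 rats had the same order in both measures. From TBI replicates 1, 3 and 2 to sham replicates 1 and 2, the sums were 68.6, 153, 186, 233 and 532 CPM. Gabrd in these rats was at 8.97, 10.2, 12.4, 24.6 and 34.7 CPM. At day 14 the sums were 203 to 310 CPM for sham and 246 to 284 CPM for TBI, and no marker was at 0 throughout. The part of granule cell content in the Gabrd result was not tested. In bulk tissue, fewer cells of a type and less RNA per cell cannot be told apart, for this and every other gene below.

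Gabra5, the other extrasynaptic subunit, fell less and less evenly. It was at 236 and 362 CPM in the sham day 1 rats and at 60.5, 124, 213 and 200 CPM in the TBI day 1 rats. All TBI rats lay below both sham rats, with TBI replicates 3 and 4 close to sham replicate 1 and TBI replicate 1 far below. The log2 fold change was -1.001 (SE 0.33, adjusted p = 0.0481 in edgeR), close to the threshold, and the call was lost in 10 of the 14 fits that left out 1 rat (all but sham day 1 replicate 1 and TBI day 1 replicates 1, 3 and 4). The value was -0.66 (adjusted p = 0.415) without sham day 1 replicate 2. Leaving out the 3 libraries high in choroid plexus markers gave -1.30 with an adjusted p of 0.0518. At day 14 Gabra5 was at 243, 237, 290 and 251 CPM in sham rats and at 221, 202, 237 and 235 CPM in TBI rats. Every TBI rat was at or below the lowest sham rat, by a narrow margin, and the log2 fold change of -0.19 was not called (95% interval -0.79 to 0.41, adjusted p = 0.887 in edgeR). This separation at day 14 was shared by Gad1 only, 2 of the 7 genes, and was found in 5.86% of all tested genes.

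**Figure D2:**
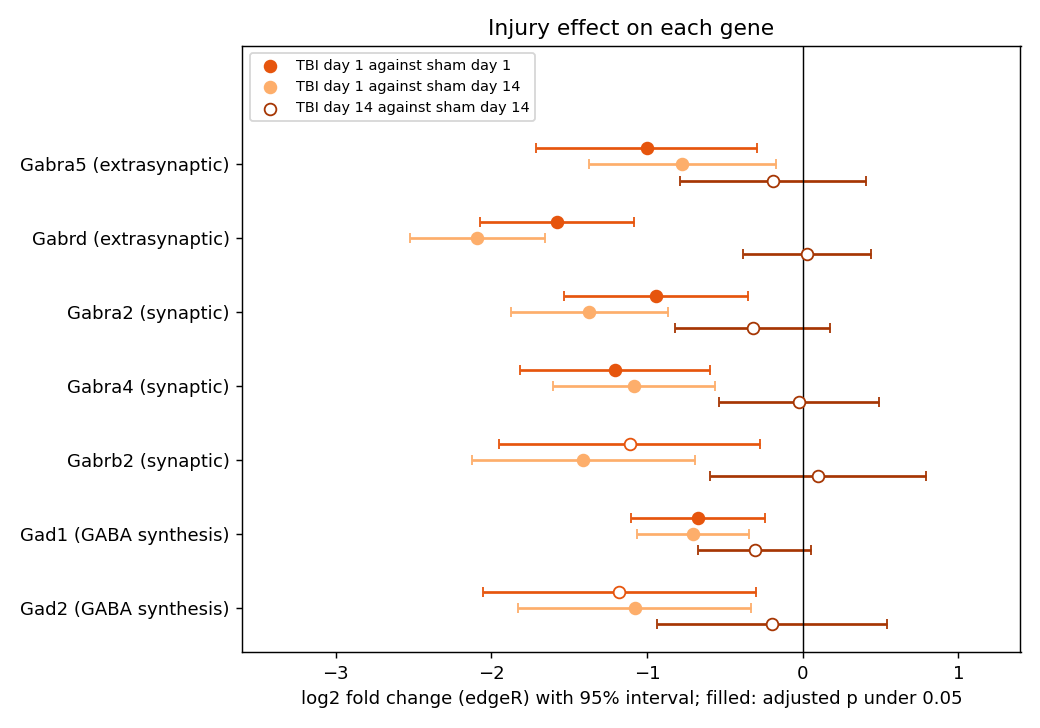
Log2 fold change of each gene with its 95% interval from edgeR, for TBI against sham at day 1, TBI day 1 against sham day 14, and TBI against sham at day 14. Filled points have an adjusted p under 0.05. All 7 estimates of either day 1 comparison are below 0 and every interval of day 14 spans 0.

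Among the synaptic subunits, Gabra4 had the lowest adjusted p at day 1. It was at 52.6 and 101 CPM in the sham rats and at 19.1, 39.6, 26.7 and 47.5 CPM in the TBI rats. The groups did not overlap, with TBI replicate 4 just under sham replicate 1, and the log2 fold change was -1.21 (SE 0.29, adjusted p = 0.00937 in edgeR). As for Gabrd, the TBI day 1 rats were also below every rat of day 14. Leaving out sham day 1 replicate 2 gave -0.66 (adjusted p = 0.269). At day 14 sham rats were at 62.3, 77, 76.4 and 66.5 CPM and TBI rats at 73.4, 61.7, 74.8 and 68.2 CPM, fully overlapping (log2 fold change -0.02, 95% interval -0.54 to 0.49, adjusted p = 0.988 in edgeR). The difference between the days was -1.18 (SE 0.38) and was not called (adjusted p = 0.0945 in edgeR).

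Gabra2, the alpha2 subunit found at synapses of principal cells, was at 128 and 262 CPM in the sham day 1 rats and at 59.6, 100, 102 and 145 CPM in the TBI day 1 rats. TBI replicate 4 lay above sham replicate 1, so the groups overlapped. The log2 fold change was -0.94 (SE 0.28, adjusted p = 0.0284 in edgeR). It was -0.33 (adjusted p = 0.587) without sham day 1 replicate 2, and the call was also lost without TBI day 1 replicate 2 or 3 (adjusted p = 0.0538 and 0.0519). At day 14 the sham rats were at 230, 278, 271 and 270 CPM and the TBI rats at 237, 194, 204 and 204 CPM, with only sham replicate 1 and TBI replicate 1 out of order. The log2 fold change there was -0.32 (95% interval -0.82 to 0.17, adjusted p = 0.682 in edgeR).

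Gabrb2, the beta2 subunit, was the least abundant member in reads, with 75 counts in its lowest library. It was at 10.7 and 18.6 CPM in sham day 1 and at 5.08, 11.1, 3.44 and 7.48 CPM in TBI day 1, overlapping through TBI replicate 2. Its log2 fold change of -1.11 (SE 0.39) was not called (adjusted p = 0.0602 in edgeR), although its size resembled that of Gabra4. At day 14 sham rats were at 11.6, 18.1, 25.6 and 16.7 CPM and TBI rats at 22.4, 12.7, 23.1 and 19.3 CPM. The ranges nearly coincided (log2 fold change 0.10, 95% interval -0.59 to 0.80, adjusted p = 0.963 in edgeR).

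The promoters of Gabra4 and of Gad1 are shown because they were the 2 members, of 6 with a promoter in the RefSeq table of GRCr8, that held any motif searched for. Searched on both strands were the CRE (TGACGTCA, in 1.91% of all 27457 promoters of this length), its first 5 bases (TGACG, 22%), the TATA box (TATAAA, 14.3%), the site of EGR factors (GCGNGGGCG, 5.29%), the AP-1 site (TGANTCA, 7.33%) and the E-box (CACGTG, 6.65%). The CRE contains its own first 5 bases and no other motif overlaps by its letters. Gabra4 (chr14:36944497-36944796, plus strand) held the EGR letters at 2 places, 53 and 37 bases before the start. Gad1 (chr3:75777202-75777501, plus strand) held them once on the opposite strand, 92 bases before the start, and TATAAA 213 bases before it. Capitals mark these matches.

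Gabra4 promoter: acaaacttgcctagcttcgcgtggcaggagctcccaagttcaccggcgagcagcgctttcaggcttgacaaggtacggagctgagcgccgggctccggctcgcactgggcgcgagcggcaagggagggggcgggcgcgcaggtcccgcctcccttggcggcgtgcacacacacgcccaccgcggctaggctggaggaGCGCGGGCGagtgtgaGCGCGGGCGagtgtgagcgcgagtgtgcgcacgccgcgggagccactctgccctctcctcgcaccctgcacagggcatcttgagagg
Gad1 promoter: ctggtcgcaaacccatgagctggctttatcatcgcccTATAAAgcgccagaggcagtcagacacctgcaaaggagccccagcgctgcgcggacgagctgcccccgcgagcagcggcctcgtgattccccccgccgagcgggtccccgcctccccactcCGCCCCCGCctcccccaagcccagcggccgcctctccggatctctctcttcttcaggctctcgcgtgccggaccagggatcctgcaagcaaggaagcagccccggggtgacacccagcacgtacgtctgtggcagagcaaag

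These matches are letters and not shown to be bound, and the EGR letters were in 9.65% of the promoters of tested genes. The promoters of Gabra5, Gabrd, Gabrb2 and Gad2 held none of the 6 motifs.

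The extrasynaptic and synaptic subunits did not separate as groups. The mean log2 CPM of Gabra5 and Gabrd minus that of Gabra2, Gabra4 and Gabrb2 was 0.87 and 0.51 in the sham day 1 rats and 0.37, 0.15, 1.14 and 0.12 in the TBI day 1 rats. At day 14 it was 0.88, 0.47, 0.25 and 0.76 in sham rats and 0.38, 0.97, 0.29 and 0.69 in TBI rats. The groups overlapped at both days: the means were 0.69 ± 0.25 (SD, n = 2) against 0.45 ± 0.48 (SD, n = 4) at day 1, and 0.59 ± 0.29 (SD, n = 4) against 0.58 ± 0.31 (SD, n = 4) at day 14. With Gabra4 counted on the extrasynaptic side the means at day 1 were 0.74 ± 0.16 (SD, n = 2) and 0.49 ± 0.37 (SD, n = 4). No test was made of these differences, because the genes that enter them were chosen with results known.

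The estimates of the extrasynaptic pair enclosed most of those of the synaptic subunits. At day 1 the log2 fold changes were -1.58 for Gabrd and -1.001 for Gabra5, beside synaptic values of -1.21, -1.11 and -0.94, and the intervals of all 5 overlapped. Against Gabra4, its usual alpha partner, Gabrd was at -1.09 and -1.53 log2 units in the sham day 1 rats and between -2.53 and -1.08 in the TBI day 1 rats, an overlap. After removal of the group means, Gabrd and Gabra5 did not vary together over the 14 rats (Pearson's r = -0.01), while Gabra2 and Gabra4 did (r = 0.92). Gabrd's values with the other 6 genes lay between -0.20 and 0.35. These correlations are a description over rats whose libraries, depth and neuronal content are shared by all genes.

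**Figure D3:**
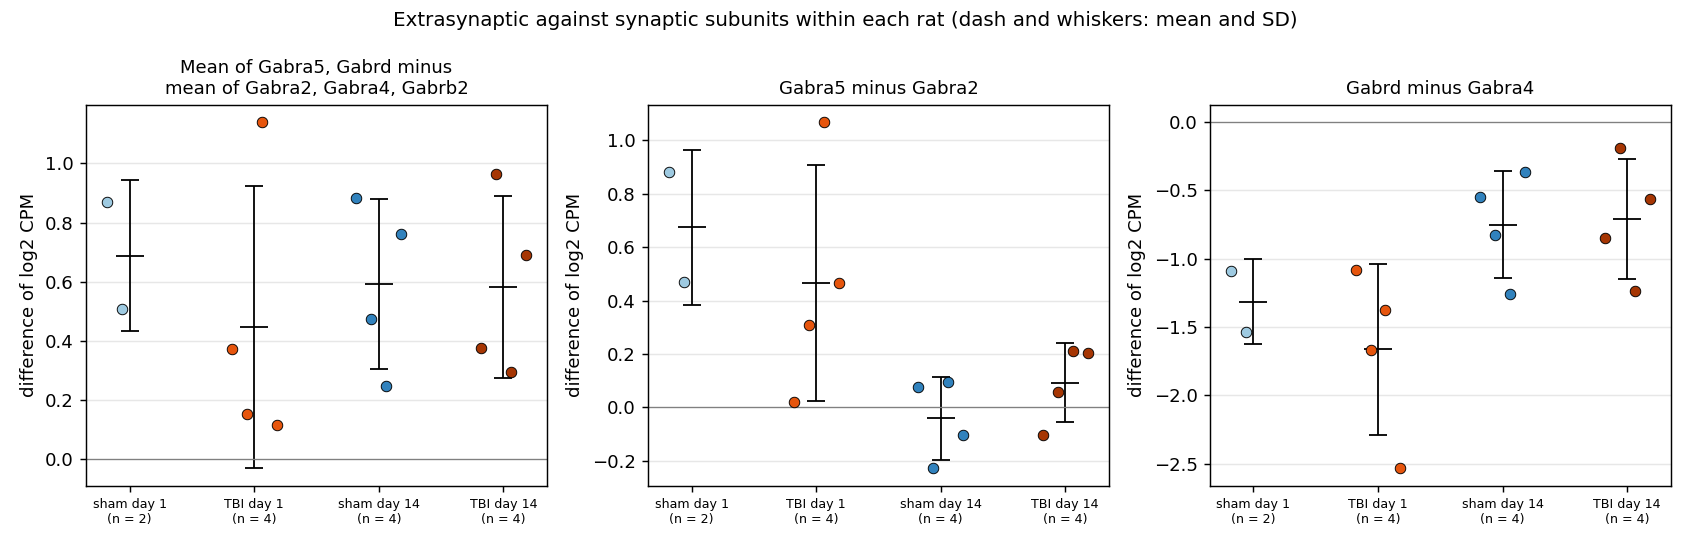
Differences in log2 CPM within each rat: the extrasynaptic mean minus the synaptic mean, Gabra5 minus Gabra2, and Gabrd minus Gabra4, by group (points are rats, dash and whiskers the mean and SD). TBI and sham rats of the same day overlap in all 3 panels.

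Of the enzymes, Gad1 encodes GAD67, which makes most of the GABA of the cell body, and Gad2 encodes GAD65, which is tied to synaptic vesicles. Gad1 was at 183 and 323 CPM in sham day 1 and at 125, 145, 193 and 173 CPM in TBI day 1. TBI replicate 3 lay above sham replicate 1. The log2 fold change was -0.67 (SE 0.20, adjusted p = 0.0315 in edgeR), the smallest in size of the 7. It was -0.21 (adjusted p = 0.632) without sham day 1 replicate 2, and the call was also lost without TBI day 1 replicate 1 or 2 (adjusted p = 0.0552 and 0.0677). At day 14 Gad1 was at 244, 238, 256 and 299 CPM in sham rats and at 225, 216, 201 and 195 CPM in TBI rats. All 4 TBI rats were below all 4 sham rats, and the log2 fold change of -0.31 (SE 0.17, unadjusted p = 0.0884, adjusted p = 0.503 in edgeR) was not called.

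Gad2 was at 36.8 and 84.5 CPM in sham day 1 and at 13.4, 31.2, 24.2 and 38.5 CPM in TBI day 1. TBI replicate 4 was above sham replicate 1, and the log2 fold change of -1.18 (SE 0.41) was not called (adjusted p = 0.0582 in edgeR). At day 14 it was at 43.1, 37.8, 96 and 50 CPM in sham rats and at 52.9, 34.1, 59.2 and 51.8 CPM in TBI rats. Sham replicate 3 stood far above the rest and the groups overlapped (log2 fold change -0.20, 95% interval -0.94 to 0.54, adjusted p = 0.913 in edgeR). Gad2 minus Gad1 in log2 CPM was -2.31 and -1.93 in the sham day 1 rats and between -3.22 and -2.17 in the TBI day 1 rats, which overlap.

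Interneuron markers, from the cells that hold most of both enzymes, were lower as a sum. At day 1, 7 of 11 tested interneuron markers were lower and 0 higher, where 7.93% of all tested genes were lower and 11.2% higher. Of the most abundant on the list, Cnr1, the cannabinoid receptor, was at -1.05 (adjusted p = 0.026 in edgeR) and Cck, the peptide cholecystokinin, at 0.22 (adjusted p = 0.513). The 12 markers summed to 980 and 1114 CPM in the sham rats and 606 to 847 CPM in the injured rats. At day 14 they summed to 899 to 1156 CPM in sham rats and to 791 to 867 in TBI rats, and 0 of 11 passed. The TBI rats thus lay below the sham rats in this sum at both days. The part of interneuron content in the Gad1 and Gad2 results was not tested.

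Of the general neuron markers, 3 of 10 were also lower at day 1, where 7.93% of all tested genes were lower. Snap25, of the release machinery, was at -0.70 (adjusted p = 0.117 in edgeR) and Map2, of dendrites, at -0.37 (adjusted p = 0.33). Their sum at day 1 was 7893 and 11349 CPM for sham and 3433 to 6753 CPM for TBI. At day 14 the sums were 6015 to 8213 CPM for sham and 4856 to 6522 CPM for TBI. Excitatory neuron markers were lower in 2 of 6 at day 1 (sums of 3799 and 4314 CPM in sham against 1372 to 2997 CPM in TBI), and pyramidal cell markers, of the cells best known for alpha5, in 2 of 5 tested (447 and 863 CPM against 363 to 715 CPM, which overlap). Astrocyte markers summed to 5521 and 8692 CPM in sham and 12393 to 18463 CPM in TBI at day 1, where 1 of 6 was called, Gfap, higher by 3.10 on the log2 scale. Gfap carried most of the rise in this sum, and the median log2 fold change of the 6 was -0.10. The mean log2 CPM of Aldh1l1, Gja1 and S100b was lower in TBI than in sham, and that of Aqp4 and Slc1a3 slightly higher. The part of these cell types in the results of the 7 genes was not tested. TBI day 1 replicate 1 had the lowest general neuron mean of all rats (-1.34, centred log2 CPM, against -0.18 to 0.07 in the other TBI day 1 rats), and sham day 1 replicate 2 the highest (0.62). With the general neuron mean as a covariate, an alternative added after the data were seen, Gabrd stayed lower at day 1 (-1.63, adjusted p = 0.00282 in edgeR), and the other 6 genes, none of them called, ranged from -0.52 for Gabrb2 to -0.18 for Gabra5.

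**Figure D4:**
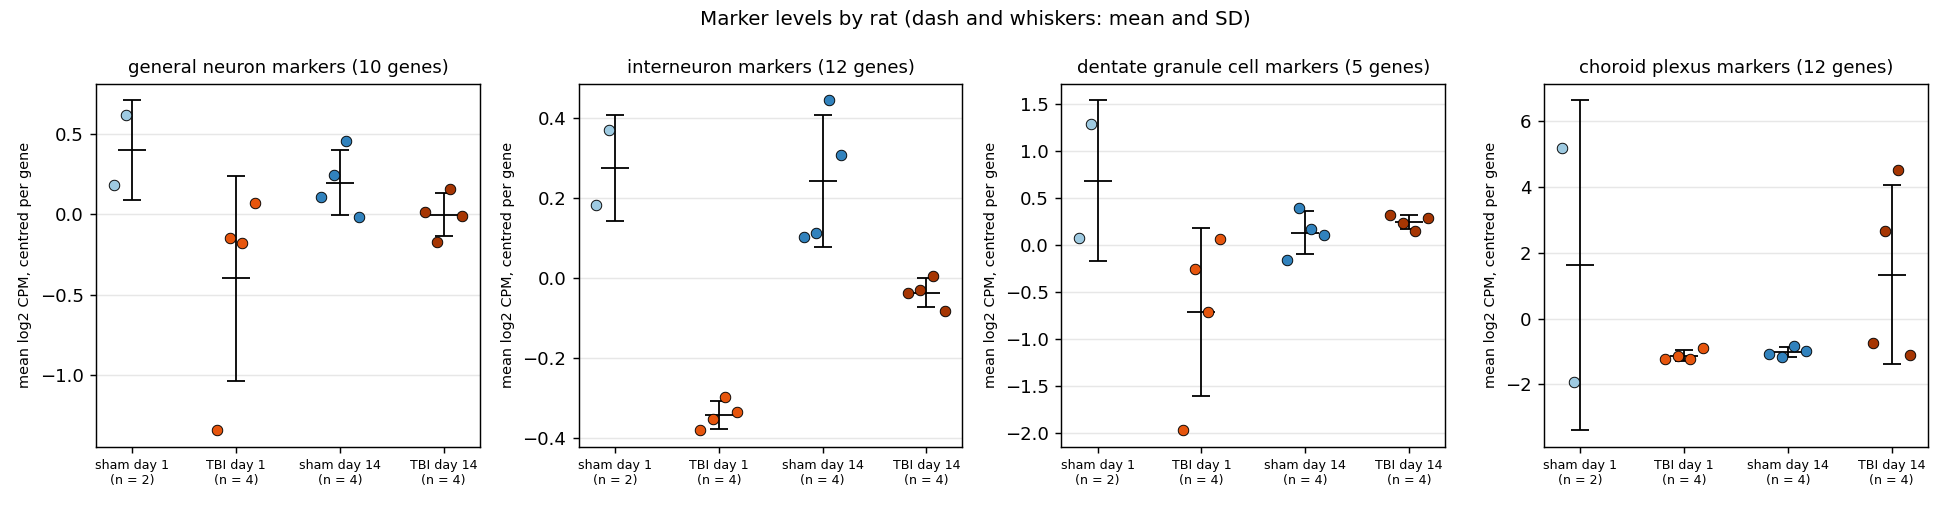
Mean log2 CPM, centred per gene, of 4 marker lists in each rat, by group (dash and whiskers: mean and SD). Interneuron markers are lowest in all 4 TBI day 1 rats, neuron and granule cell markers spread widely at day 1, and choroid plexus markers are high in 1 sham day 1 rat and 2 TBI day 14 rats.

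The pair of sham day 1 rats decided most of the day 1 calls. Without replicate 2, the higher of the pair in all 7 genes, only Gabrd was called, and the other 6 ranged from -0.66 to -0.21. Without replicate 1, which was high in choroid plexus markers, all 7 were. Without all 3 libraries high in these markers 6 were called at day 1, all but Gabra5, and 0 at day 14. When only the 6 rats of day 1 were fitted, Gabrd alone passed (-1.55, adjusted p = 0.0103 in edgeR). The day 1 calls of the cell type markers rest on the same sham pair and were not recounted without either rat.

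Set against the 4 sham rats of day 14, the baseline that the study used for its trajectories, all 7 genes were lower in TBI day 1, where 21% of tested genes were lower and 25% higher. The groups did not overlap in 6 of the 7, all but Gad2, against 17.8% of tested genes. The log2 fold changes were -2.09 for Gabrd (SE 0.20, adjusted p = 2.26e-06 in edgeR), -1.41 for Gabrb2, -1.37 for Gabra2, -1.09 for Gabra4, -1.08 for Gad2, -0.77 for Gabra5 and -0.71 for Gad1. The call of Gabra5 was lost in 5 of the 14 fits without 1 rat (each sham day 14 rat, and TBI day 1 replicate 2; adjusted p up to 0.0938 in edgeR), and that of Gad2 in 2 (sham day 14 replicate 3 and TBI day 1 replicate 3; up to 0.0964). With the general neuron markers as a covariate 5 of the 7 were called, all but this pair. In this comparison injury and the day of collection cannot be told apart. Between the sham groups none of the 7 genes was called: 0 passed and 0 had an unadjusted p under 0.05 in edgeR, limma-voom and DESeq2 called 0, and 11.3% of tested genes were higher and 7.88% lower in sham day 1. The widest estimate between the sham groups was -0.51 for Gabrd (95% interval -1.03 to 0.00, adjusted p = 0.145 in edgeR).

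Between the injured groups, 4 of the 7 were higher at day 14 than at day 1, where 17.6% of tested genes were higher. They were Gabrd (2.12, SE 0.20, adjusted p = 5.58e-06 in edgeR), Gabrb2 (1.51), Gabra2 (1.05) and Gabra4 (1.06). Gabra5 (0.58, adjusted p = 0.114), Gad1 (0.40, adjusted p = 0.0754) and Gad2 (0.88, adjusted p = 0.0583) were not called. In 5 of the 7, all but Gabra5 and Gad2, every TBI day 14 rat was above every TBI day 1 rat, as in 16.7% of tested genes. The comparison shares the TBI day 1 rats with those above.

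The other genes of GABA signaling were lower or not called at day 1. The median of the 33 tested genes on 5 lists was -0.47. An unadjusted p under 0.05 in edgeR was found for 21 lower and 0 higher, where 4429 of 12875 tested genes had one in either direction. After adjustment 11 of the 33 were called lower and 0 higher, where 7.93% of tested genes were lower and 11.2% higher. Only 2 were called lower without sham day 1 replicate 2, 1 when the day 1 rats alone were fitted, and 14 without sham day 1 replicate 1, where 1 was called higher. The lists were chosen with earlier results of these data known. At day 14, 0 of 33 were called in edgeR, 0 in limma-voom and 4, all lower, in DESeq2. An unadjusted p under 0.05 in edgeR was found at day 14 for 6 lower and 1 higher, where 1713 of 12875 tested genes had one in either direction.

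GABA transport and breakdown held the most of them, 5 of 6. Slc6a11, the GABA transporter GAT-3 of astrocytes, was at -1.35 (SE 0.17, adjusted p = 7.97e-05 in edgeR), with 804 and 876 counts in the sham rats and 302 to 468 in the TBI rats. Aldh5a1, the last enzyme of GABA breakdown, was at -0.57 (adjusted p = 0.00882). At day 14 Slc6a11 was at -0.46 (adjusted p = 0.0871), with all TBI rats below all sham rats and no call. For the difference between the days Slc6a11 was called (-0.89, adjusted p = 0.037 in edgeR). That call was not stable: 0 of the 33 genes were called for the difference in limma-voom, with scaling by library size alone, with the choroid plexus markers as a covariate, and in 8 of the 14 fits that left out 1 rat (each TBI day 14 rat, sham day 14 replicates 1, 2 and 4, and TBI day 1 replicate 3).

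Over the 13 other GABA-A subunits tested, the median at day 1 was -0.51 on the log2 scale. Among them Gabrb1 was at -0.99 (adjusted p = 0.0768 in edgeR) and was not called. Gabra6, a subunit of cerebellar granule cells, had 82 counts in all and was not tested. In GRCr8 many subunit genes stand in clusters. Gabrb1, Gabra4, Gabra2 and Gabrg1 follow each other on chromosome 14, with 1 other protein-coding gene among them, and were at -0.99, -1.21, -0.94 and -0.51 at day 1. Gabrg3 and Gabra5 adjoin on chromosome 1 and were at -0.42 and -1.001, of which Gabra5 alone was called. Gabrd lies on chromosome 5 with no other subunit gene beside it.

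Both subunits of the GABA-B receptor, the slow G protein-coupled receptor, were lower at day 1: Gabbr1 at -0.47 (adjusted p = 0.0284 in edgeR) and Gabbr2 at -0.65 (adjusted p = 0.0329). Of 10 genes of the inhibitory postsynaptic scaffold and receptor trafficking, 2 were lower, Gabarapl1 (-0.63, adjusted p = 0.0112) and Gphn, the scaffold gephyrin (-0.39, adjusted p = 0.0465), and Lhfpl4, which holds receptors at synapses, was at -0.71 (adjusted p = 0.0701). Slc12a5, the exporter KCC2 that keeps neuronal chloride low, was lower (-0.47, adjusted p = 0.0248), and the importer Slc12a2, NKCC1, was at -0.40 (adjusted p = 0.145).

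**Figure D5:**
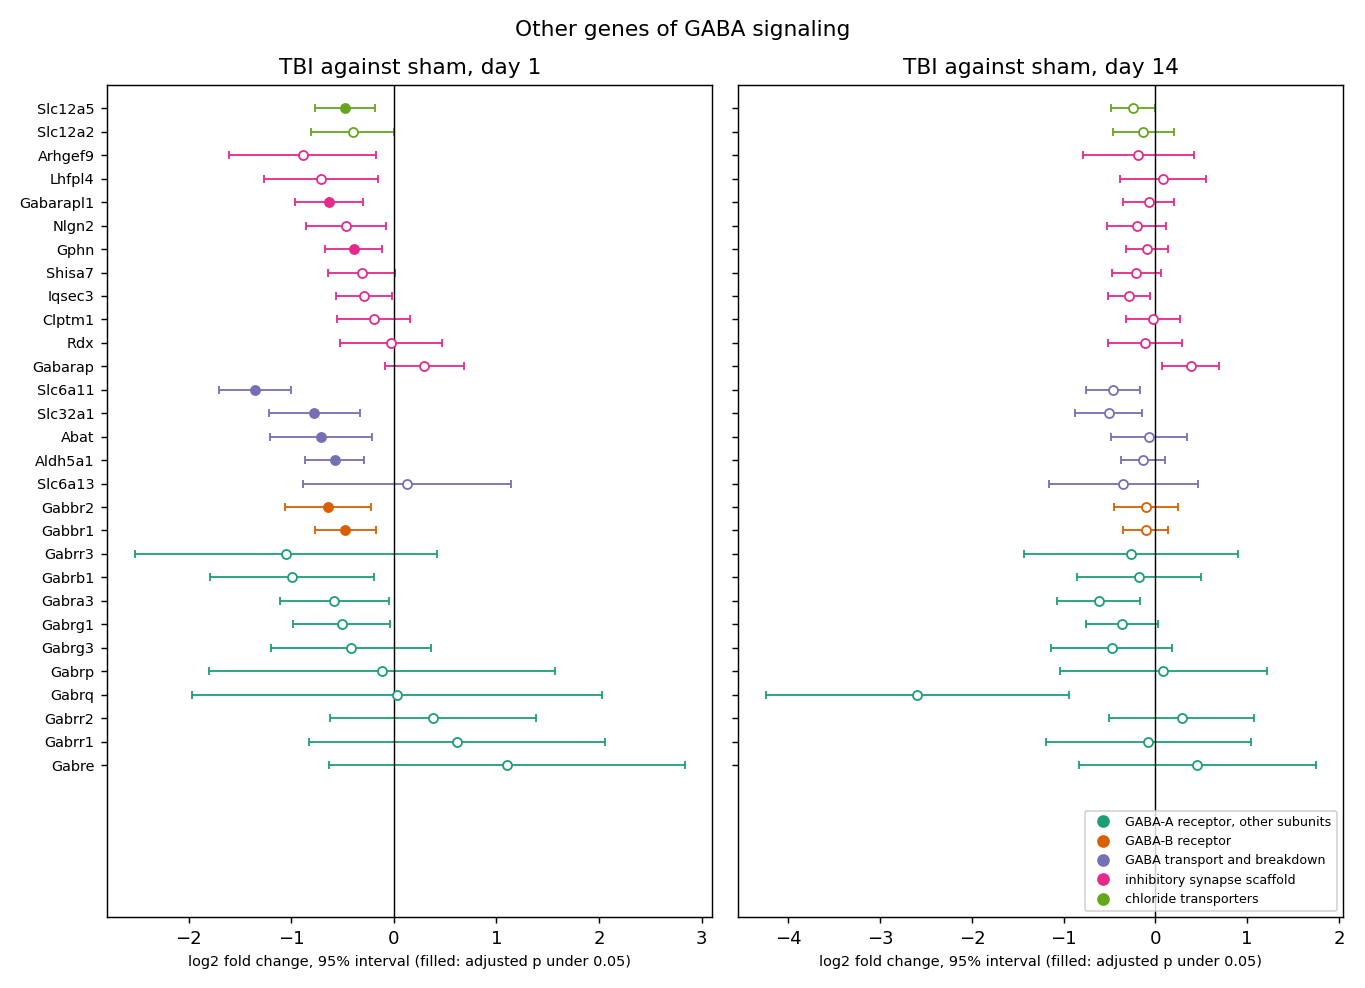
Log2 fold change of 29 of the 33 other genes of GABA signaling with 95% intervals from edgeR, TBI against sham at day 1 (left) and day 14 (right), colored by list. Filled points have an adjusted p under 0.05: 9 at day 1, all below 0, and 0 at day 14.

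Genes most like each member over all 14 rats were found by Pearson's r of log2 CPM, as a description. For Gabrd they were RGD1562084 (0.97), Plk5 (0.97) and Fhdc1 (0.97), and for Gabra5 they were Nefm (0.98), a neurofilament on the general neuron list, Nkain3 (0.97) and Epb41l3 (0.97). For Gabra2 they were Nalcn (0.98), the sodium leak channel, Cdh9 (0.98) and Pcsk1 (0.98), and for Gabra4 they included Dpp6 (0.98), a partner of potassium channels, and Cacna2d1 (0.98). Gabrb2 was nearest to Slc7a14 (0.95), Trpc5 (0.94) and Prkacb (0.94). Gad1 was nearest to Gprasp1 (0.96), Cdh11 (0.95) and Cnr1 (0.95), the last an interneuron marker, and Gad2 to Xkr4 (0.97), Tmem178b (0.97) and Slc8a1 (0.96).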

How the data were processed

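RNA-seq reads were, per the labels and the study's methods, checked with FastQC 0.11.8, aligned to rn5 with STAR 2.4.2a and counted per gene with featureCounts 1.5.0. The strand setting of the counting is not given in the sources used here. The deposited values are raw counts per gene without normalization, each sample a separate rat. All 14 labelled samples were used. The labels give 4 sham rats at day 14, where the study's description of the animals gives 2. No row lacked a gene name.

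The tests were edgeR's quasi-likelihood tests (edgeR 4.0.16, R 4.3.3). Low genes were dropped with filterByExpr by group, libraries were scaled with TMM, and each of the 4 groups had its own mean in a joint model of all samples, so that the 2 sham day 1 rats share the spread of the rest. That spread was not equal between days in every gene. The SD of log2 CPM of Gabra5 was 0.44 (sham) and 0.84 (TBI) at day 1, against 0.13 and 0.11 at day 14. For Gabrd it was 0.35 and 0.26, against 0.29 and 0.32. In genes like Gabra5 the SE may be too small for day 1 and too large for day 14. P-values are two-sided and Benjamini-Hochberg adjusted over 12875 genes. The test was run on simulated data first. Log2 CPM used a prior count of 2. Alternatives included limma-voom (limma 3.58.1, the study's test) and DESeq2 1.42.0.

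The members and lists were chosen with earlier results of these data known. Named were the 7 members, up to 3 genes of each pathway list with the smallest p at day 1 (and neighbouring subunit genes, named after their values were seen), the 2 most abundant of a marker list (C1ql2 and Calb1 for granule cells), and the 3 genes most like each member. Some genes that this rule covers are not reported here. Promoters are from RefSeq (GRCr8), where 6 of the 7 members matched, with Gabra2 the exception. No rn5 annotation was used, and the H3K4me3 peak lists were not used here.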

Additional observations from a re-analysis of the deposited data

Results flagged for a closer look

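The effect of injury on Gabrd differed between the days, by -1.60 on the log2 scale (SE 0.30, adjusted p = 0.0101 in edgeR). It was -1.58 at day 1 and 0.03 at day 14.

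Among the 4 sham rats of day 14, replicate 1 stood apart in Gabra2. It was the lowest, and its gap to the next rat was 0.849 of the range of the group in log2 CPM, above Dixon's critical value of 0.829 for 4 samples. Of 21 groups of 4 rats tested, this was the only such case, and chance gives about 1 in 20.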

How the results depend on the processing

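Gabrd was called lower at day 1 under every alternative, from -1.94 (all 6 sham rats as 1 baseline) to -1.31 (without sham day 1 replicate 2). The number of the 7 genes called at day 1, 5 as reported, was 3 with scaling by library size alone, 2 at an adjusted p under 0.01, 1 with the general neuron markers as a covariate and 1 with only the groups compared, and 1 to 7 when each rat was left out in turn. It was 1 without sham day 1 replicate 2 and 3 without TBI day 1 replicate 2. For the difference between days, 1 as reported, it was 2 in DESeq2, 0 at an adjusted p under 0.01, and 0 to 2 with each rat left out, 0 being without sham day 1 replicate 2. Between the sham groups it was 1 (Gabra2) with the neuron covariate. Over all genes the calls at day 1, 2458 as reported, were 1087 at an adjusted p under 0.01, 4324 with all 6 sham rats, 651 with only the groups compared and 922 to 3144 with each rat left out. At day 14, 571 as reported, they were 366, 890 with the neuron covariate, 1108 with only the groups compared and 400 to 705. The causes were not tested. Some alternatives have fewer samples or a stricter threshold by construction. Fitting only the groups compared also gives these groups a spread of their own, and the calls over all genes then fell at day 1 and rose at day 14. Leaving out 1 sham day 1 rat leaves a lone sample that is assumed to vary like the other groups. Scaling by library size alone moved the median of all genes at day 1 to 0.15 on the log2 scale. The neuron covariate and the removal of the 3 libraries high in choroid plexus markers were added after seeing the data. Replicate numbers did not pair the rats (correlations of deviations from -0.35 to 0.24, over 0.1 in 5 of 18 pairs). With the replicate block 6 of 7 genes were called at day 1, 0 at day 14 and 1 for the difference. Of the single-gene results, 1019 kept their side of the threshold, 46 lost it, 34 gained it and 0 reversed.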
